A study of Ananas comosus with 3 samples.

Results

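The genes described here are the ribosomal proteins of pineapple (Ananas comosus) on a cDNA array on which each slide held RNA of ripe, mature yellow fruit flesh and of unripe, mature green fruit flesh. They were chosen by name, with earlier results of these data known. Every contig was taken whose deposited gene name held the words ribosomal protein, leaving out ubiquitin fusions and kinases. That gave 52 contigs carried by 88 cDNA elements, out of 7773 features measured on at least 2 slides and 9278 cDNA elements on the array. Of the 88, 2 were given these contig numbers only after the study's own selection on these slides. A contig is a group of sequenced clones assembled into one transcript, and an element is one clone spotted in duplicate. Of the 52 contigs, 20 were named as 60S (large cytosolic subunit), 11 as 40S (small cytosolic subunit) and 1 as 30S (the small subunit of chloroplast and mitochondrial ribosomes). The other 20 named no subunit, and 14 of these carried a large-subunit number (L), 5 a small-subunit number (S) and 1 no number. Because an L or S number without a subunit does not tell a cytosolic from an organellar protein, these 20 were kept apart.

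Mature yellow and mature green flesh came from field-grown fruits of the cultivar Smooth Cayenne, Clone C10, with skin and pith removed and the middle part of the flesh used. Total RNA of both stages was extracted with TRIzol, labelled with Cy3 and Cy5 and hybridised together on 3 slides. Mature yellow RNA carried Cy3 on replicates 1 and 3 and Cy5 on replicate 2, the dye swap. With 1 swapped slide among 3, a dye effect that differs between genes does not cancel in their mean, and the sources used here do not say which slides came from separate fruits.

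Ribosomal proteins hold the ribosomal RNAs in shape and line the sites where messenger RNA, transfer RNAs and translation factors bind. In plants each cytosolic ribosomal protein is usually encoded by a small family of near-identical genes, and the organellar ribosomes use a separate, bacterial-type set. Because cytosolic ribosomes need one copy of most proteins each, their transcripts often vary together in growing tissue, while fruit ripening takes place after most growth has ended. Near-identical family members can cross-hybridise on a cDNA array, so a value for one contig may hold signal of another.

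Ratios are given as log2 of mature yellow over mature green, so a positive value means a brighter signal in mature yellow flesh. Across all features the ratios of the slides correlated with r = 0.41 (replicates 1 and 2), 0.37 (2 and 3) and 0.67 (1 and 3), and over the 52 ribosomal protein contigs with r = 0.42, 0.49 and 0.67. These correlations are across genes within slides, and genes are not independent replicates. The fruit transcripts used to check the tissue were above the blank limit (the median of the blank and control spots plus 2 robust SD) in both channels on all 3 slides. The bromelain contigs, fruit cysteine proteases, averaged -4.44 ± 0.92 and -3.57 ± 0.37, and a metallothionein, a metal-binding protein, averaged 0.44 ± 0.56 (SD, n = 3 slides).

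None of the 52 ribosomal protein contigs was called as changed, and all 52 were measured on all 3 slides. A call needed 1.5-fold or more and a Benjamini-Hochberg adjusted p under 0.05 in limma's moderated test over all 7773 features, which called 10 features (0.129%), 4 higher (0.0515%) and 6 lower (0.0772%). In the same test the bromelain contig at -4.44 had an adjusted p of 0.121, and the one at -3.57 had 0.046 (limma). A missing call therefore does not show that a contig was unchanged. At an unadjusted p under 0.05, 7 contigs were higher and 1 was lower in mature yellow flesh (13.5% and 1.92%), against 5.43% and 3.53% of all features. At 1.5-fold or more, whatever the p, there were 3 contigs, against 5.24% of all features, with 2 higher and 1 lower (3.85% and 1.92%), against 3.18% and 2.06%. One of the higher contigs, L30, reached 1.5-fold only through a clone that the study numbered after selection on these slides, and with the earlier contig numbers the count was 2 contigs rather than 3. This L30 contig was also among the 7 higher at an unadjusted p under 0.05. With the earlier contig numbers its adjusted p was 0.881 (limma, Benjamini-Hochberg).

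The ribosomal protein contigs as a group lay slightly to the mature yellow side. Their median log2 ratio was 0.063, with a range of -0.78 to 1.30, against a median of 0.0075 for all features. The median was 0.077 on replicate 1, 0.11 on replicate 2 and 0.045 on replicate 3. Of the 52, 36 had a mean above 0 (69.2%), against 53.2% of all features. In 16 contigs the ratio was above 0 on every slide and in 4 it was below 0 on every slide (30.8% and 7.69%), against 18.3% and 16.9% of the features measured on all 3 slides. The 16 include L30, whose earlier-numbered clone alone changed sign between slides. The remaining 32 contigs changed sign between slides. Most values were small: 21 contigs averaged within 0.1 of 0 and 36 within 0.2. The dye swap gave the ratio of greatest size in 40 of the 52 contigs, and in 12 its sign was opposite to that of both other slides. These counts were not set against the share over all features, so they are no result about ribosomal proteins.

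**Figure D1:**
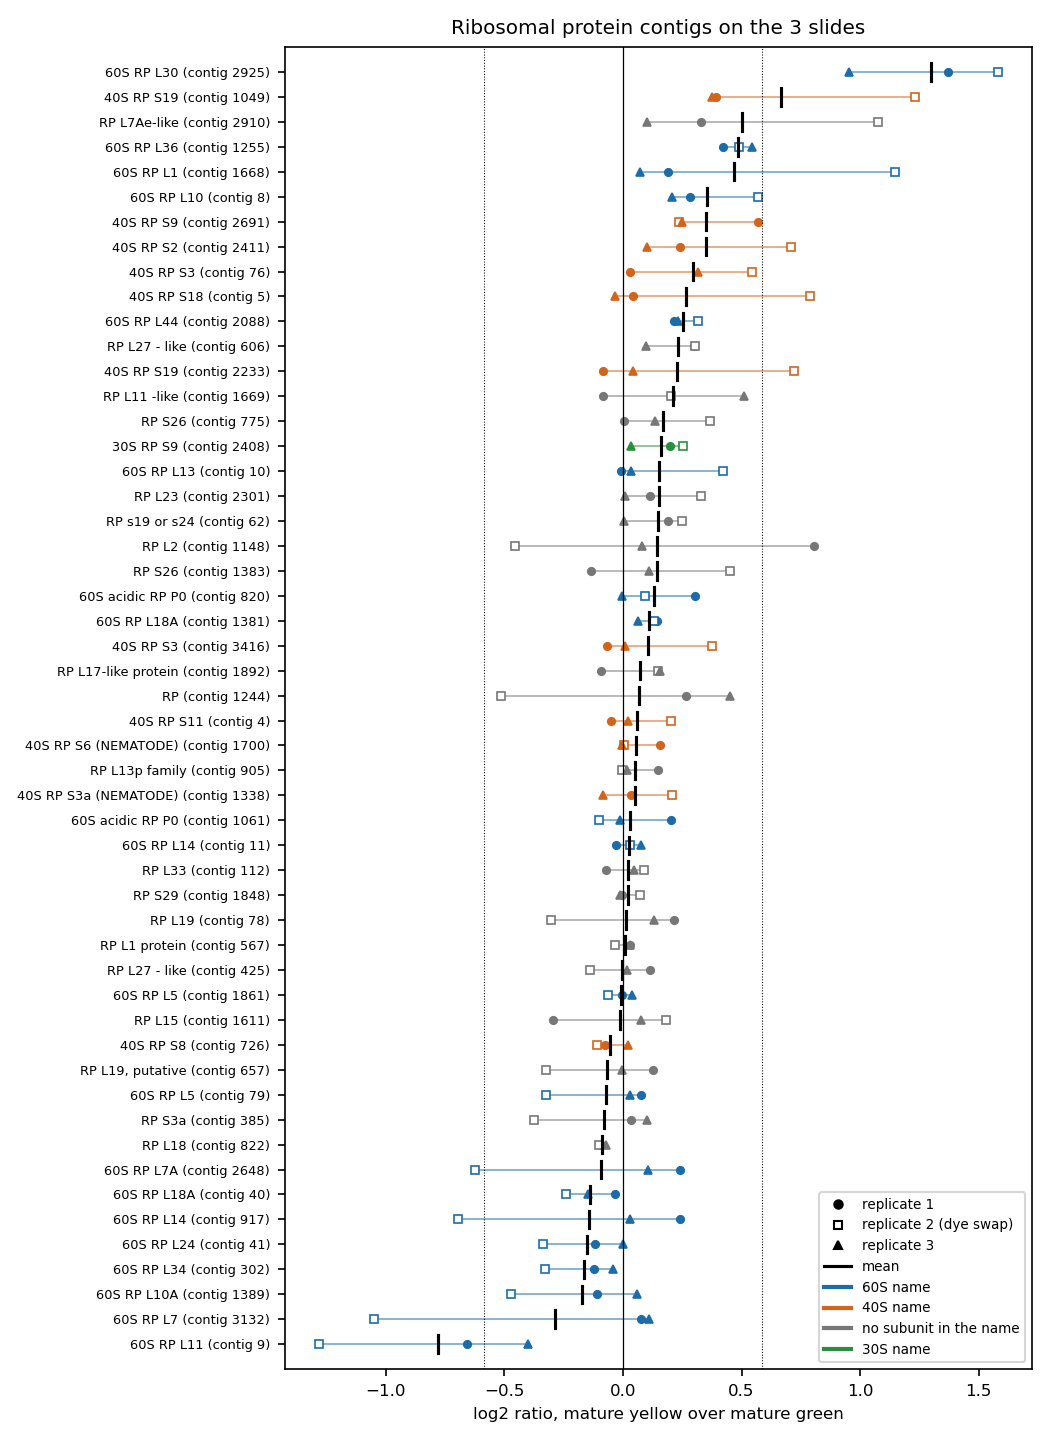
Log2 ratio of mature yellow over mature green (horizontal axis) of each of the 52 ribosomal protein contigs, with a filled circle, an open square and a filled triangle for replicates 1, 2 (dye swap) and 3, a black bar for the mean, colour for the subunit in the name and dotted lines at 1.5-fold in either direction. L30 and S19 (contig 1049) lie past the upper line and L11 (contig 9) past the lower one, while the open squares of the dye swap lie farthest from 0 in most rows.

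Among the 60S contigs, L30 and L11 had the largest ratios, in opposite directions. L30 (contig 2925), which in yeast lies at the interface of the subunits, had log2 ratios of 1.37, 1.58 and 0.95 on replicates 1, 2 and 3. The mean of 1.30 ± 0.32 (SD, n = 3 slides) corresponds to 2.46-fold higher in mature yellow flesh, with an adjusted p of 0.146 (limma, Benjamini-Hochberg). This value rests on 1 of the contig's 2 elements, and its size moved with the background correction: the mean was 1.62 with a normexp offset of 16 and 1.90 with an offset of 0 in place of 50, 2.93 with plain subtraction and 0.52 with no correction. L11 (contig 9), which binds the 5S RNA in the central protuberance of the large subunit, had ratios of -0.66, -1.28 and -0.40. Its mean was -0.78 ± 0.45, or 1.72-fold lower in mature yellow flesh, with an adjusted p of 0.434 (limma). All slides of each contig lay on one side of 0, yet neither passed the adjusted threshold.

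L36 (contig 1255) was higher in mature yellow flesh by a similar amount on every slide. Its ratios were 0.42, 0.49 and 0.54, with a mean of 0.48 ± 0.061, or 1.40-fold, an unadjusted p of 0.00145 and an adjusted p of 0.148 (limma). Its background-subtracted signals were 746, 800 and 326 scanner units in mature yellow flesh, against 398, 841 and 128 in mature green flesh on replicates 1, 2 and 3, before any balancing of the dyes. It was therefore among the brighter ribosomal protein contigs in both stages.

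L1 (contig 1668) averaged 0.47 ± 0.59, with 0.19, 1.15 and 0.074 on replicates 1, 2 and 3, so that the dye swap supplied most of the mean. L10 (contig 8), which in yeast joins the large subunit late in its assembly, had ratios of 0.28, 0.57 and 0.21, a mean of 0.35 ± 0.19 and an adjusted p of 0.464 (limma). L44 (contig 2088) was smaller and even, at 0.21, 0.32 and 0.23, with a mean of 0.25 ± 0.054 and an adjusted p of 0.372 (limma). These contigs, with L30, L36 and L18A (contig 1381, 0.14, 0.13 and 0.063), were the 6 60S contigs above 0 on every slide.

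Besides L11, the 60S contigs below 0 on every slide were L34 (contig 302) and L18A (contig 40). L34 had ratios of -0.12, -0.33 and -0.044 and L18A had -0.032, -0.24 and -0.15. Their means of -0.17 ± 0.15 and -0.14 ± 0.10 had adjusted p values of 0.63 and 0.622 (limma). L7 (contig 3132) had the second lowest mean of all 52 contigs, -0.29 ± 0.66, but only through the dye swap, with 0.077, -1.05 and 0.11 on replicates 1, 2 and 3. The stalk protein P0, which anchors the factor-binding stalk of the large subunit, averaged 0.13 in contig 820 and 0.031 in contig 1061. Contig 1061 gave signals of 9.0, 2.0 and -0.063 scanner units in mature yellow and 3.5, 13.5 and 1.46 in mature green flesh, close to the blank spots.

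The 40S contigs lay mostly above 0, with 10 of 11 means in that direction. S19 (contig 1049), needed in yeast and human cells to mature the small-subunit RNA, was the highest, with 0.39, 1.23 and 0.38 on replicates 1, 2 and 3. Its mean of 0.67 ± 0.49, or 1.59-fold, had an unadjusted p of 0.0406 and an adjusted p of 0.535 (limma). Its signals were 598, 1121 and 197 scanner units in mature yellow flesh, against 285, 610 and 68.2 in mature green flesh, so the mature yellow signal was the brighter in raw units under both dye assignments. The direction of this S19 contig was the same on every slide, with its greatest size on the dye swap.

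S9 (contig 2691), which sits near the messenger RNA entry site, had ratios of 0.57, 0.23 and 0.25, with a mean of 0.35 ± 0.19 and an adjusted p of 0.464 (limma). S2 (contig 2411), a neighbour of that site, had 0.24, 0.71 and 0.10, with a mean of 0.35 ± 0.32, and S3 (contig 76), which lines the entry channel, had 0.030, 0.54 and 0.32, with a mean of 0.30 ± 0.26. S19, S9, S2 and S3 were the 4 40S contigs above 0 on every slide, and none was below 0 on every slide. S18 (contig 5) averaged 0.27 ± 0.45, with 0.79 on the dye swap and 0.043 and -0.034 on replicates 1 and 3. S11 (contig 4) and S8 (contig 726) stayed near 0, at 0.059 ± 0.13 and -0.054 ± 0.067.

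A few contigs had names other than those of the plant cytosolic ribosome. The 40S contigs 1338 (S3a) and 1700 (S6) carried nematode names, and averaged 0.052 and 0.054, both changing sign between slides. Without them the 9 other 40S contigs had a median of 0.27, with 8 means above 0. The 30S-named S9 (contig 2408), the only contig with an organellar name, had ratios of 0.20, 0.25 and 0.033, with a mean of 0.16 ± 0.12 and an adjusted p of 0.586 (limma). Its signals were 653.5, 1091 and 94.2 scanner units in mature yellow flesh and 409.5, 1439.5 and 49.4 in mature green flesh. The 30S contig minus the median of the 60S and 40S contigs was 0.12, 0.12 and -0.0034 on replicates 1, 2 and 3. A single contig gives no account of organellar ribosomes as a class.

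Among the 20 contigs without a subunit in their names, 15 means were above 0 and the median was 0.061. L7Ae-like (contig 2910), of a family that binds kink-turns in RNA and includes proteins outside the ribosome, was the highest at 0.33, 1.07 and 0.10, with a mean of 0.50 ± 0.51. L27-like (contig 606) had 0.30, 0.30 and 0.098, with a mean of 0.23 ± 0.12, an unadjusted p of 0.0336 and an adjusted p of 0.51 (limma). L18 (contig 822) was the only one of them below 0 on every slide, at -0.094, -0.10 and -0.069. Its clones lay on opposite sides of 0, with means of -0.25 (JBW044A04) and 0.070 (JBW059F01). Contig 1244, named only as a ribosomal protein, was bright in both stages but changed sign on the dye swap, with 0.26, -0.51 and 0.45. L2 (contig 1148) also changed sign on the dye swap, with 0.80, -0.46 and 0.082, so its mean of 0.14 ± 0.63 describes none of its slides.

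Whether the subunits differed depended on the slide. The median of the 20 60S contigs was 0.0078 and that of the 11 40S contigs 0.23, a difference of -0.22 between the medians of the means. On single slides the 60S median was 0.11, -0.080 and 0.048 on replicates 1, 2 and 3, and the 40S median 0.034, 0.38 and 0.021. The difference, 60S minus 40S, was therefore 0.076, -0.46 and 0.027, with a mean of -0.12 ± 0.29 (SD, n = 3 slides). Only the dye swap placed the 40S contigs above the 60S contigs. Averaged over replicates 1 and 3 alone, the difference between the medians was 0.090, in the other direction. Grouping all contigs by L and S numbers gave the same pattern, with medians of 0.024 for 34 L contigs and 0.15 for 16 S contigs, and differences of 0.081, -0.33 and 0.024 on the slides. These differences are a description without a test, since contigs are not replicates and were chosen with results of these data known. The dye and the slide cannot be told apart here, because a single slide carried the swap.

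**Figure D2:**
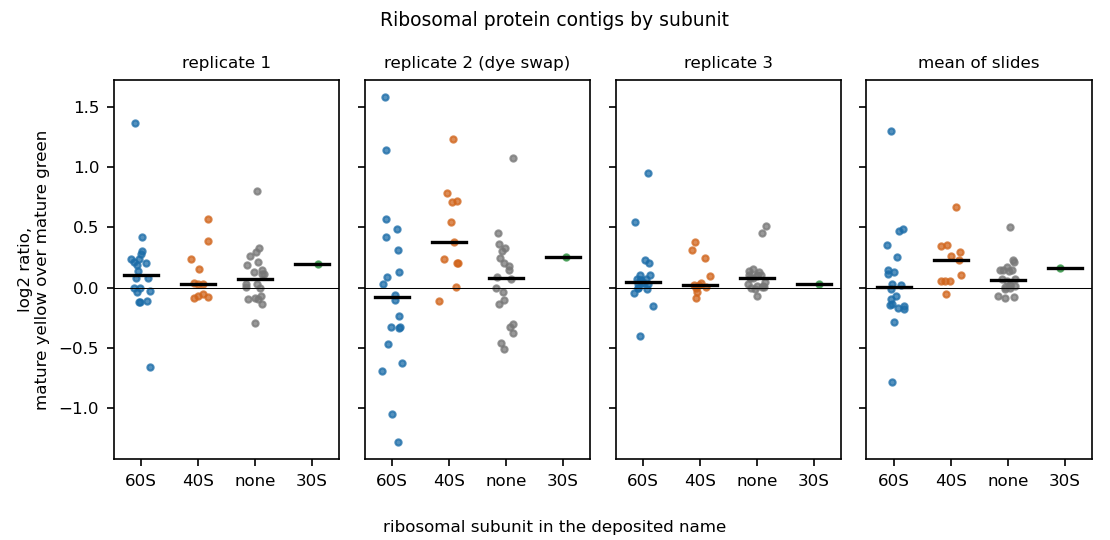
Log2 ratio of mature yellow over mature green (vertical axis) of the ribosomal protein contigs by the subunit in their names (60S, 40S, none, 30S), in panels for replicates 1, 2 (dye swap) and 3 and for the mean of slides, with black bars for medians. The 40S median stands at 0.38 on the dye swap, against 0.034 and 0.021 on the other slides.

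Several proteins were represented by more than one contig of the same name. The files do not say whether these are members of a gene family or unjoined stretches of one transcript, and in each pair the contig with the higher mean is given first. Where one name of a pair lacks a subunit, as for L11 and L1, it may also stand for an unrelated organellar protein of the same number. The widest difference was in L11, where contig 1669 (L11-like) had -0.084, 0.20 and 0.51, against -0.66, -1.28 and -0.40 for contig 9. Contig 1669 exceeded contig 9 by 0.57, 1.48 and 0.91 on replicates 1, 2 and 3, a mean of 0.99 ± 0.46 (SD, n = 3 slides). S19 in contig 1049 exceeded S19 in contig 2233 by 0.48, 0.51 and 0.34, a mean of 0.44 ± 0.091. L18A in contig 1381 exceeded L18A in contig 40 by 0.17, 0.37 and 0.21. In each of these 3 pairs the sign of the difference was the same on every slide, dye swap included. The direction for L18A depends on the clone, however. Clone JBW054B01 of contig 40 had 0.33, 0.25 and 0.20, above the 0.14, 0.13 and 0.063 of contig 1381.

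Differences for the other shared names were smaller or less even. The L1 contigs 1668 and 567 differed by a mean of 0.46 ± 0.63, with 1.18 of it on the dye swap, and contig 567 was near the blank spots. The S3 contigs 76 and 3416 differed by 0.19 ± 0.11 and the L27-like contigs 606 and 425 by 0.24 ± 0.19, with contig 425 dim on every slide. The L5, L19, P0 and S26 pairs differed by 0.10 or less on average, and the L14 contigs 11 and 917 by 0.17 ± 0.51. The sign was the same on every slide for the L1, S3, L27, L19 and P0 pairs, and changed between slides for the L5, S26 and L14 pairs. In total 11 pairs were compared, without a test.

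The individual clones showed how firmly each contig value was held. Of the 88 elements, 65 had a mean above 0 and 70 were above the blank limit in both channels on all 3 slides. The same shares were not taken over all elements, so these counts are a description only. In a fit with each element as its own feature, 2 ribosomal protein elements were called (1 higher and 1 lower), against 222 of 9275 elements in all (2.39%), 47 higher (0.507%) and 175 lower (1.89%). Of the 22 contigs with at least 2 elements, 8 held elements with means on both sides of 0, and 30 contigs rested on a single element.

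The 2 elements of L30 (contig 2925) did not give the same result. JBW113G07 had log2 ratios of 2.73, 3.03 and 1.92, a mean of 2.56 ± 0.57, and an adjusted p of 0.0453 in the element fit (limma). Its signals were 528, 610 and 445 scanner units in mature yellow flesh, against 2.5, 19 and 6.85 in mature green flesh, where it was above the blank limit on only 2 of 3 slides. With so dim a mature green signal the size of its ratio depends on the background correction, and no fold is given for it. The other clone, JBW098G02, had 0.011, 0.13 and -0.015, with signals of 2.5, 18 and 3.10 in mature yellow and 7.0, 12.5 and 3.70 in mature green flesh, near the blank spots in both stages. JBW113G07 was among the clones that the study numbered only after they had passed its own selection on these same slides, so its large ratio is no independent evidence about L30. With the contig numbers that preceded that selection, L30 is JBW098G02 alone and averages 0.043. With only spots past the study's test of 2 standard deviations, L30 is JBW113G07 alone and averages 2.56. The contig values that the authors deposited gave L30 -2.08 and 0.85 on replicates 1 and 2. The signals of JBW098G02 had those signs, while JBW113G07 was brighter in mature yellow flesh on both slides. Which clones the deposited values held was not tested.

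L11 (contig 9) was held by all of its clones. JBW092B04 averaged -0.85, JBW090G02 -0.73 and JBW069F07 -0.76, each below 0 on every slide, and only JBW069F07 had been numbered after selection on these slides. Their signals lay well above the blank spots in both stages, as with JBW092B04 at 513, 598 and 203 scanner units in mature yellow flesh, against 522.5, 3389 and 209 in mature green flesh. The mature green signal of JBW092B04 was much the brighter on the dye swap and close to the mature yellow signal on the others, and its normalised ratio was -0.42, -1.69 and -0.45.

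L10 (contig 8) had the most clones, and its 5 elements averaged between 0.040 and 0.62, all above 0. The brightest, JBW054C01, had 0.56, 0.94 and 0.36, and the dimmest, JBW037C05, which was near the blank spots, had 0.17, -0.072 and 0.021. S19 (contig 1049) gave 0.94 in its brighter clone JBW053F04 and 0.39 in JBW047G03. The 4 clones of L14 (contig 11) ranged from -0.038 to 0.11, the 4 of L33 (contig 112) from -0.14 to 0.13 and the 3 of S11 (contig 4) from 0.028 to 0.062. In these 3 contigs every clone mean was close to 0.

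Clones of opposite sign stood behind several contig means near 0. In L18A (contig 40), JBW100F02 had -0.54, -0.73 and -0.64, a mean of -0.64 with an adjusted p of 0.0474 in the element fit (limma), while JBW054B01 had 0.33, 0.25 and 0.20 and JBW098E06, measured on 2 slides, averaged 0.059. In S3a (contig 385), JBW036D04 had -0.36, -1.26 and -0.15 and JBW081A09 had 0.43, 0.51 and 0.36. In L5 (contig 1861), JBW063F01 averaged -0.28, against 0.12 and 0.13 for the other clones. The means of these contigs, -0.14, -0.079 and -0.0091, therefore do not describe their clones.

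**Figure D3:**
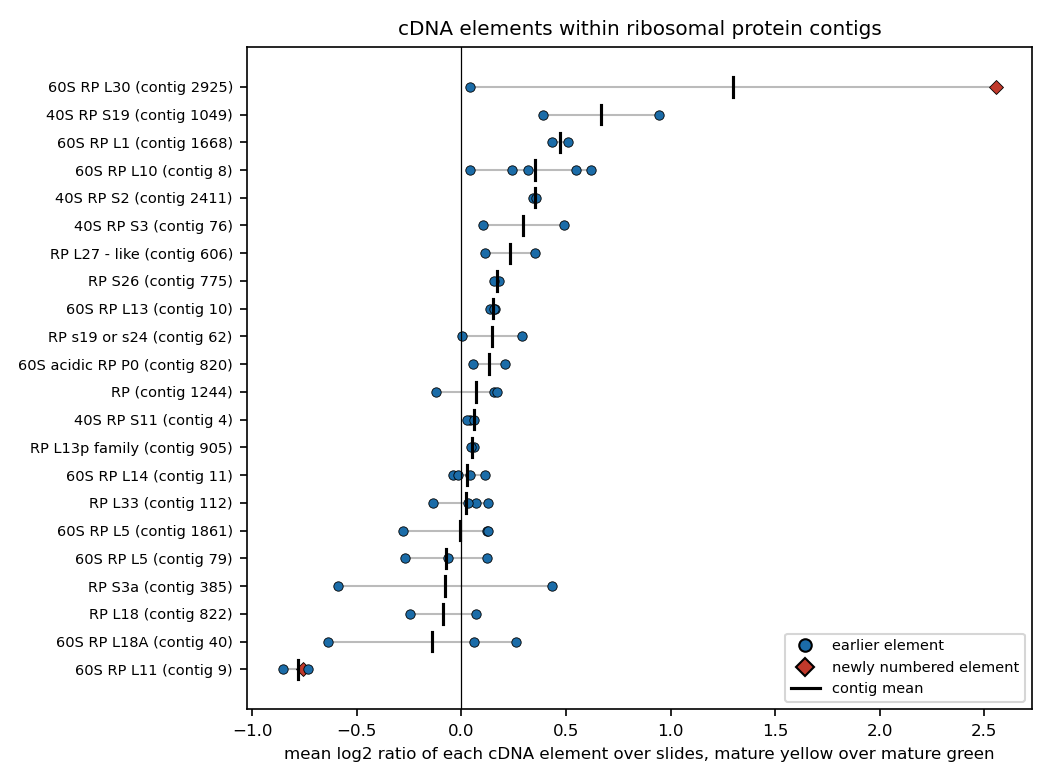
Mean log2 ratio over slides of mature yellow over mature green (horizontal axis) for each cDNA element of the 22 ribosomal protein contigs with at least 2 elements, with circles for earlier elements, diamonds for newly numbered ones and black bars for the contig mean. The L30 elements stand at 2.56 and 0.043, while the L11 (contig 9) elements lie together between -0.85 and -0.73.

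Ribosomal protein clones passed the study's test of 2 standard deviations on replicates 1, 2 and 3 in 47, 51 and 29 of 88 elements. It was passed on all slides by 21 elements (23.9%) and on none by 26 (29.5%), against 20.2% and 60.9% of all elements. The 21 had a median size of 0.43 and 18 were higher in mature yellow flesh, while the 26 had a median size of 0.057 and 17 were higher. Because the 21 were selected on these same slides, their larger ratios are a description only. The part of brightness in them was not tested. The counts of higher elements were not set against those of all elements in the same groups.

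After normalisation the ratios of bright elements were not centred on 0 on every slide. In the brightest 10% of elements the median ratio of all elements was 0.22, 0.075 and 0.41 on replicates 1, 2 and 3. The ribosomal protein elements had medians of 0.059, 0.16 and 0.045, with 51 of 88, 56 of 86 and 68 of 88 above 0. Set against the median of elements of like brightness, their medians were 0.030, 0.17 and 0.034, and 50 of 88, 56 of 86 and 66 of 88 lay above it. The part of brightness in these values was not tested.

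**Figure D4:**
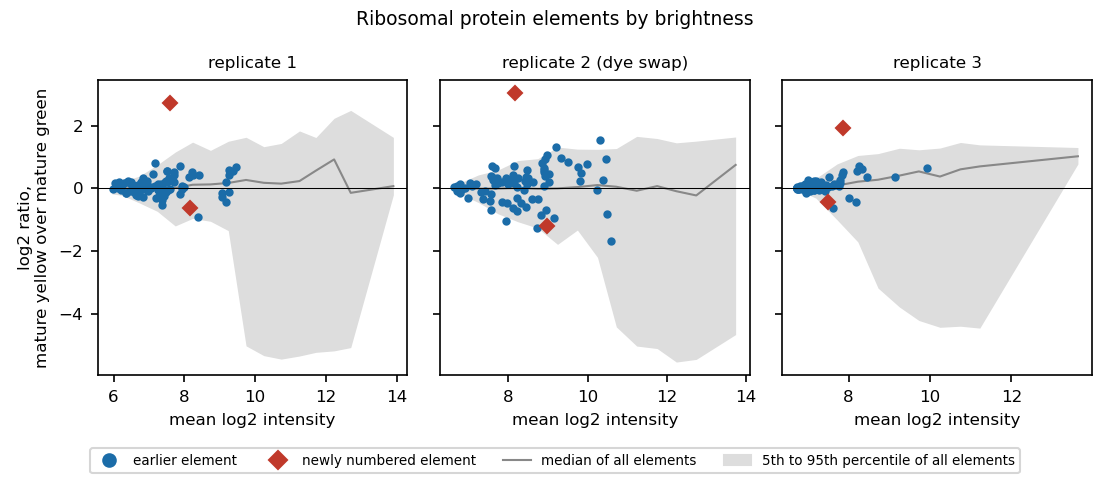
Log2 ratio of mature yellow over mature green (vertical axis) against mean log2 intensity (horizontal axis) of each ribosomal protein element on replicates 1, 2 (dye swap) and 3, over the median (grey line) and the 5th to 95th percentile (grey band) of all elements. Most elements lie inside the band, and the newly numbered L30 clone lies above it on every slide at 2.73, 3.03 and 1.92.

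The translation factors, which load and move ribosomes along messenger RNA, had means below 0 more often than above it. Of 28 features with names of initiation, elongation or release factors, none was called, 10 had a mean above 0 (35.7%), against 53.2% of all features, and the median was -0.030, against 0.0075. At an unadjusted p under 0.05, 1 was higher and 3 were lower in mature yellow flesh, against 5.43% and 3.53% of all features. The list was taken by keyword and includes nematode names (contigs 1929 and 2861, at -0.022 and -0.033). It also includes a mitochondrial elongation factor G (contig 3075, at 0.12) and a name shared with a sugar pyrophosphorylase (contig 389, at -0.031). These were not set apart. Elongation factor 1-gamma (contig 1701) had the lowest value, -0.52, -0.38 and -0.15, with a mean of -0.35 and an adjusted p of 0.454 (limma). The initiation factor eIF-2B alpha subunit (contig 1211), which recharges the factor that brings the first transfer RNA, had the highest at 0.23, 0.50 and 0.12. Fibrillarin-like protein (contig 2914), the methylase of ribosomal RNA and the one nucleolar name found, had 0.055, 0.25 and -0.0019.

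A few ribosomal names lay outside the naming rule. The S4 contig 6, named as a ribosomal S4 protein, had 3 clones averaging 0.10 to 0.26, and the S4 contig 3150 averaged -0.053. Clone JBW068A06, named as S12 only in the study's selected spot lists and without a contig, had -0.64, -0.75 and -0.36, a mean of -0.58 ± 0.20 with an adjusted p of 0.264 (limma). Its ratio was below 0 on every slide, and, like the late-numbered L30 clone, it had been named after selection on these slides.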

How the data were processed

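The authors deposited, for each slide, scanner intensity values of both channels (mean and background) for every spot, a second list of spots named for a test of 2 standard deviations with newly sequenced clones added, and processed values by contig, whose score reads from its values as a signed fold (the ratio, or minus its reciprocal where below 1) with unstated centring. These folds were put on the log2 scale. Values were background-corrected by normexp (offset 50), loess-normalised slide by slide, and expressed as mature yellow over mature green, in limma 3.58.1 (R 4.3.3). Abnormal and control spots had weight 0 in the loess. Duplicate spots, and then elements of one contig, were averaged, and features on at least 2 slides were tested by lmFit and eBayes with Benjamini-Hochberg adjustment. A call was 1.5-fold with an adjusted p under 0.05. The p-values cover the spread between 3 hybridisations, which may be partly technical. The blank limit was the median of the blank and control spots plus 2 robust SD. The code was tested on simulated data. Figures were drawn with Python 3.11.15 and matplotlib 3.10.9.

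The ribosomal protein contigs, the lists of translation factor and nucleolar names (by keyword) and the rules below were chosen with earlier results of these data known. Contigs were named in the text where they were called, were among the 8 highest or 8 lowest of those with one sign on all slides, had the most elements (5), an organellar name, the widest range over 3 or more elements (3), or both an earlier and a newly numbered clone; others (same-name pairs, sign changes between slides) were chosen after their values were seen. In the processed table the column of replicate 2 ran against the other columns (r = -0.86 with mature yellow over mature green, against 0.84 and 0.81), so it was turned by its yellow channel. Sequences of the clones were not used here.
Alternatives tried were other background corrections, normalisations, spot filters, contig numberings, models and the leaving out of each replicate.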

Additional observations from a re-analysis of the deposited data

How the results depend on the processing

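The median of the ribosomal protein contigs stayed above 0 under every alternative run, and 24 to 39 of their means were above 0. The 24 were of 31 contigs measured with spots past the test of 2 standard deviations. The 39 were of 52 contigs with median centring and of 50 in the deposited values, against 36 of 52 in the main run. The median was 0.11 with a normexp offset of 0, 0.20 with plain background subtraction and 0.028 with no background correction. It was 0.12 with median centring and 0.17 with scale normalisation. Under these alternatives the median of all features was 0.0022 to 0.016. With spots past the test of 2 standard deviations it was 0.17 for ribosomal protein contigs and 0.16 for all features. In the deposited processed values it was 0.32, where all features had 0.17. Ribosomal protein calls appeared under plain subtraction (1, L30 contig 2925), with the selected spots (1, the same contig) and with a dye term (1, S19 contig 1049). Others appeared with each element a feature (2), with the methods' t-test unadjusted (2, contigs 9 and 2925) and in the deposited values (2, contigs 775 and 1049). That t-test used a p limit of 0.1, with or without adjustment, in place of 0.05, and the same 1.5-fold limit. Calls over all features numbered 34 with an offset of 0, 21 with 16, 59 with plain subtraction, 18 without background correction, 6 with median centring (1 higher, against 4 of 10), 0 with scale normalisation, 18 with spots above the blanks, 110 with the selected spots, 227 with earlier contig numbers, 0 with the median over elements, 64 with a dye term, 0 with trend and robust variances, 222 with each element a feature, 212 by the methods' t-test unadjusted and 0 after Benjamini-Hochberg, and 138 in the deposited values, and 0 to 5 with a replicate left out (0 without replicate 1 or 2). Ribosomal protein contigs at 1.5-fold or more numbered 12 with plain subtraction, 0 without background correction and 16 with scale normalisation. There were 5 with a dye term, 15 in the deposited values and 1 to 5 with a replicate left out (1 without replicate 2, 5 without replicate 1 or 3). The share of all features at 1.5-fold was not taken under these alternatives, so the counts are no result about ribosomal proteins. The 60S median ranged over -0.088 to 0.31, and was 0.31 with the selected spots, which left 31 ribosomal protein contigs and an all-feature median of 0.16. The 40S median was 0.47 with scale normalisation, 0.48 in the deposited values and 0.0045 to 0.29 with a replicate left out, lowest without replicate 2. The 60S minus 40S difference was -0.56 with scale normalisation and -0.30 to 0.090 with a replicate left out, positive only without replicate 2. The 30S contig had 0.35 with scale normalisation and 0.59 in the deposited values. L18 (contig 822) kept its sign in 17 of 19 alternatives and had 0.11 with the selected spots. L30 reversed sign in the deposited values, at -0.62 over 2 slides (adjusted p = 0.703, limma). Over alternatives its adjusted p ran from 0.00358 (JBW113G07 alone) to 0.881 (JBW098G02 alone). L11 (contig 9) had 0.0602 to 0.901 and S19 (contig 1049) 0.0316 to 0.901. In the deposited values the column of replicate 3 held 687 contigs (22 ribosomal) with a median of 1.03, against 0.14 and -0.059 for replicates 1 and 2 (replicate 2 before it was turned), and contig 775, after turning, had 0.047, 0.70 and 2.86. The causes were not tested. Leaving out the nematode names was chosen after seeing the data. No paired analysis was possible beyond the main one, because the ratio within a slide already pairs the stages and leaves no other block. Dim clones near the blank spots limit what small ratios can show.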
